A study of Mus musculus with 15 samples.

Results

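The tuft cell genes are 9 genes that mark tuft cells of the gut: Trpm5, Gfi1b, Dclk1, Pou2f3, Il25, Sh2d6, Rgs13, Siglecf and Avil. They were found by the gene name that the array files give each probe, leaving out control spots. That gave 19 of the 56481 probes kept, with 1 to 5 probes a gene. Of the 9 genes, 7 were bright enough to be tested, among 21997 genes in all, and Pou2f3 and Il25 were not.

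RNA came from the scraped mucosa of the 30 mm of descending colon nearest the anus, in female Balb/cJ mice that were 8 weeks old when treatment began. Each of 15 mice gave 1 array, labelled in 1 colour (Cy3) from 100 ng of total RNA, and there were 5 mice in each of 3 groups. The water group drank water. The DSS vehicle group had 3 cycles of 4 days of 4% dextran sodium sulfate (DSS) in the drinking water, with 3 days of plain water between cycles, and was dosed with the filgotinib vehicle. The DSS filgotinib group had the same DSS cycles and filgotinib at 30 mg/kg by gavage once a day. DSS is a polymer that injures the colon epithelium and is used to model colitis, and filgotinib is an oral inhibitor of Janus kinases that prefers JAK1. For the water mice the labels give vehicle as compound, but the series' design text mentions drinking water only, so whether they were gavaged cannot be told.

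Tuft cells are rare chemosensory cells of the gut epithelium, scattered among absorptive, goblet and enteroendocrine cells. Their identity depends on the transcription factor POU2F3. A taste-like cascade of receptors, G proteins, phospholipase C and the calcium-gated cation channel TRPM5 lets them respond to metabolites in the lumen. They release interleukin 25, which acts on group 2 innate lymphoid cells, and interleukin 13 from those cells in turn raises the number of tuft and goblet cells in the small intestine.

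The probes on which the results turn are shown by their first 30 of 60 bases, as the array file gives them, with the file's coordinates on build mm9. Sh2d6 and Dclk1 have a pair each, because 1 probe of each pair passed the test with DSS and its partner did not. The coordinates of the Trpm5 probe cover fewer bases than the oligonucleotide has, and those of Sh2d6 A_52_P523174 cover 355 bases. Whether a probe lies in coding sequence or a UTR was not looked up here, as no mm9 annotation was used.
Pou2f3 A_66_P105174 (chr9:42932583-42932642, minus strand): ccttactcccttttctacaaccaaatctgt
Gfi1b A_51_P370678 (chr2:28464982-28465041, minus strand): agccatgatagtagaagcctgctcctatca
Trpm5 A_66_P131008 (chr7:150257434-150257456, minus strand): tatgacggatacactggctccaggaggcac
Rgs13 A_55_P2078370 (chr1:145985824-145985883, minus strand): gacaccttattgtaccttactatgaacatt
Sh2d6 A_52_P523174 (chr6:72465596-72465950, minus strand): tccatagcccctgctctgagtagctctgtt
Sh2d6 A_66_P116348 (chr6:72463717-72463776, minus strand): cacctgggaggctggcttcctcagagacac
Dclk1 A_51_P193036 (chr3:55342815-55342874, plus strand): tttcccccctaatccttcagtttaagctca
Dclk1 A_55_P2148748 (chr3:55266925-55266984, plus strand): aatggaacccctggtagtcagctctctact
Avil A_66_P140996 (chr10:126457976-126458035, plus strand): ccaaacgcccaggtttaccatgtgccacag
Siglecf A_55_P2823856 (chr7:50614768-50614827, plus strand): ggccagcaaacatacaagaaggtaatctca
Il25 A_51_P293015 (chr14:55554319-55554378, plus strand): gggacaagatggaggacttggggagaaact

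A signal is given here as a percentage of the 75th percentile of all kept probes on its own array, which makes arrays comparable. That percentile was 681 to 810 signal units on the water arrays, 568 to 664 on the DSS vehicle arrays and 550 to 661 on the DSS filgotinib arrays. The scanner software marked 58.0% to 62.1% of probes as well above background on the water arrays, 53% to 58.6% on the DSS vehicle arrays and 50.2% to 58.3% on the DSS filgotinib arrays. Dim genes were thus measured with more room on the water arrays. Arrays lay on 6 slides, and only 2 of these carried more than 1 group. A gene was represented by its brightest probe among those that at least 5 arrays showed well above background. The words rose and fell are used for an adjusted p under 0.05 in limma, with Benjamini-Hochberg adjustment over all 21997 genes. In scraped tissue, fewer cells of a type and less RNA per cell cannot be told apart.

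What repeated DSS changed was examined in DSS vehicle against water. Gfi1b, Trpm5, Rgs13, Dclk1 and Siglecf fell, and in each of these 5 genes every DSS vehicle mouse lay below every water mouse. The share of all tested genes whose groups separate in this way was not counted. The separation thus describes these 5 genes and does not set them apart from the rest. Sh2d6 and Avil did not pass the test on their brightest probe. Thus 5 of the 7 tested genes were lower and 0 were higher, where 8.43% of all tested genes were lower and 10.6% were higher. The median log2 change over all genes was 0.05. A gene can enter the test through the group in which it is bright, as Gfi1b and Trpm5 did, so the count describes these genes and is not a test of them.

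What filgotinib changed in mice given DSS was examined in DSS filgotinib against DSS vehicle. The genes Gfi1b, Trpm5, Rgs13, Dclk1 and Siglecf rose, 5 of 7 tested, and 0 fell, where 6.74% of all genes were higher and 4.53% were lower. Both comparisons use the same 5 DSS vehicle arrays, so a low reading there enters both. What still differed from water was examined in DSS filgotinib against water, where Trpm5 and Dclk1 were lower, 2 of 7, and 0 were higher. Of all genes 3.36% were lower and 6.07% higher in that comparison. These calls lie near the threshold. When any 1 of the 5 water mice was left out both were lost, with limma adjusted p between 0.0511 and 0.0861 for Dclk1 and between 0.0516 and 0.0814 for Trpm5. The log2 differences then moved little, from -0.84 to -0.70 for Dclk1 and from -1.06 to -0.92 for Trpm5. Both were also lost without filgotinib mouse 5, that of Dclk1 without filgotinib mouse 1, and that of Trpm5 without filgotinib mouse 4.

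**Figure D1:**
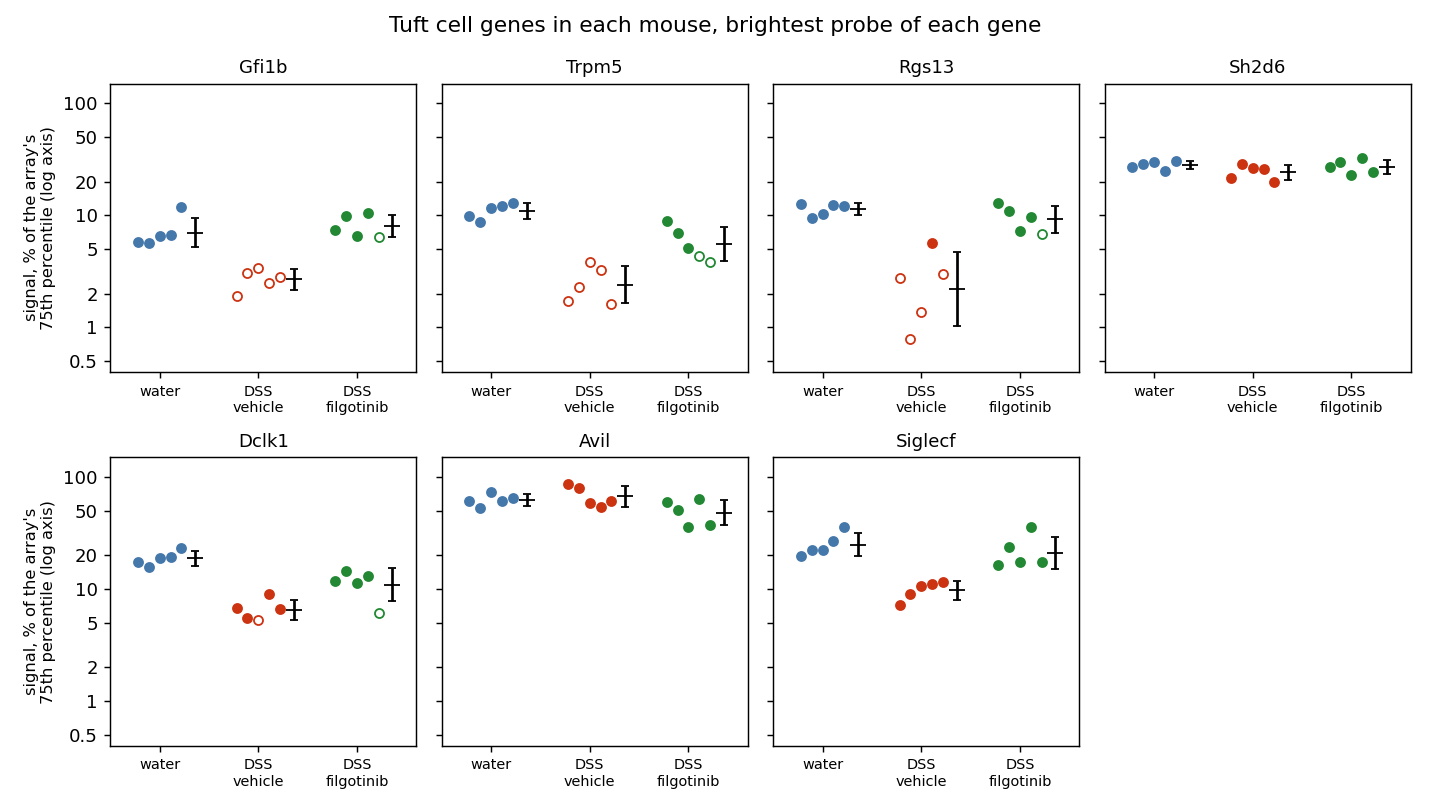
Signal of the 7 tested tuft cell genes in each mouse, as a percentage of the array's 75th percentile on a log axis, for the brightest probe of each gene. Filled points were well above background and open points were not; the bar beside each group is the mean ± SD of the log2 values (n = 5). The DSS vehicle points of Gfi1b, Trpm5, Rgs13, Dclk1 and Siglecf lie below all water points, while those of Sh2d6 and Avil overlap them.

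Pou2f3 encodes the factor that sets tuft cell fate, and its level could not be followed here. Its probe A_66_P105174 read 1.23%, 2.68%, 2.01%, 3.18% and 2.24% in the water mice, and was well above background in mouse 4 only. The DSS vehicle mice read 0.769%, 1.40%, 1.37%, 0.919% and 1.12%, none well above background. The DSS filgotinib mice read 1.88%, 1.86%, 13.8%, 1.32% and 1.49%, of which only mouse 3 was well above background. The other Pou2f3 probe was at background on all 15 arrays.

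Gfi1b encodes a zinc finger repressor that is found in tuft cells and in the megakaryocyte and erythroid lineages. Its probe read 5.79%, 5.71%, 6.60%, 6.70% and 11.8% in the water mice. The DSS vehicle mice read 1.92%, 3.08%, 3.40%, 2.50% and 2.82%, none well above background. The DSS filgotinib mice read 7.48%, 9.82%, 6.56%, 10.4% and 6.44%, above background in 4 of 5. The DSS vehicle mice were below all mice of both other groups. The means were 7.32% ± 2.54 (SD, n = 5) in water, 2.74% ± 0.565 in DSS vehicle and 8.15% ± 1.87 in DSS filgotinib. Gfi1b was at least 1.99-fold lower in DSS vehicle than in water (limma adjusted p = 0.00103). Such a bound gives each array of the dim group its own reading or, if higher, the lowest signal that counted as well above background on that array. In DSS filgotinib against DSS vehicle the log2 change was 1.57 ± 0.21 (SE, adjusted p = 0.0011). Its size is not exact, as it includes background readings in both groups. Between DSS filgotinib and water the log2 difference was 0.18, with a 95% interval from -0.28 to 0.64 (adjusted p = 0.622). Of 8 megakaryocyte and erythroid markers 5 were tested, and 0 rose or fell in either DSS against water or filgotinib against DSS vehicle. Their summed signal ran from 79.4% to 167% in water, 56.5% to 183% in DSS vehicle and 65.5% to 224% in DSS filgotinib, so the ranges overlap.

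Trpm5 encodes the cation channel that depolarises tuft cells after receptor activation. The water mice read 9.84%, 8.66%, 11.7%, 12.2% and 12.8%. The DSS vehicle mice read 1.73%, 2.31%, 3.83%, 3.23% and 1.62%, none well above background. The DSS filgotinib mice read 8.92%, 6.99%, 5.11%, 4.35% and 3.81%, with mice 4 and 5 not well above background. Filgotinib mice thus spanned the gap between the other groups: mouse 1 reached the water range, and mouse 5 fell just short of the highest DSS vehicle mouse. The means were 11% ± 1.73 in water, 2.54% ± 0.961 in DSS vehicle and 5.84% ± 2.10 in DSS filgotinib (SD, n = 5 each). Trpm5 was at least 3.11-fold lower in DSS vehicle than in water (limma adjusted p = 0.000196). Its log2 change in DSS filgotinib against DSS vehicle was 1.21 ± 0.26 (SE, adjusted p = 0.012), a size that rests on background readings in both groups. It was lower by a log2 difference of -0.98 ± 0.26 (SE) in DSS filgotinib than in water (adjusted p = 0.0358). The other Trpm5 probe was not well above background on any of the 15 arrays.

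Rgs13 encodes a regulator that shortens G protein signalling, known from tuft cells, mast cells and germinal centre B cells. Its brighter probe read 12.7%, 9.57%, 10.3%, 12.5% and 12.2% in water. In DSS vehicle it read 2.77%, 0.788%, 1.37%, 5.64% and 2.97%, and only mouse 4 was well above background. In DSS filgotinib it read 13%, 11.1%, 7.22%, 9.69% and 6.76%, so no filgotinib mouse was as low as any DSS vehicle mouse. With 4 of 5 DSS vehicle readings not well above background, the sizes are less certain than the direction. The log2 change was -2.38 ± 0.40 (SE) in DSS vehicle against water (limma adjusted p = 0.0016) and 2.08 ± 0.40 in DSS filgotinib against DSS vehicle (adjusted p = 0.00626). DSS filgotinib and water differed by -0.30, with a 95% interval from -1.15 to 0.56 (adjusted p = 0.67). The other Rgs13 probe moved in the same directions by smaller amounts, -1.39 ± 0.21 and 0.99 ± 0.21 (adjusted p = 0.000922 and 0.0115 over all 33444 tested probes).

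Markers of the other cells that use Rgs13 moved in both directions, and their part in its change was not tested. Of 8 tested mast cell markers 4 rose in DSS vehicle, with the proteases Mcpt1 and Mcpt4 up by 4.52 ± 0.37 and 4.39 ± 0.36 on the log2 scale, and Cma1 fell. The summed signal of the 8 ranged from 356% to 446% in water, 508% to 566% in DSS vehicle and 477% to 633% in DSS filgotinib, while Ms4a2 was at background on all arrays. Among markers of germinal centre B cells, Ms4a1 rose by 2.09 ± 0.64 on the log2 scale in DSS vehicle against water and S1pr2 fell by 0.71 (limma adjusted p = 0.0357 and 0.0166), with overlap between mice in both.

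Sh2d6 encodes an SH2 domain adaptor of tuft cells, and its 2 probes gave different answers. Probe A_52_P523174, which represents the gene because its mean log2 signal over the 15 arrays was higher, read 27%, 29.0%, 29.9%, 24.9% and 30.6% in water, 21.5%, 29.0%, 26.6%, 25.9% and 19.9% in DSS vehicle, and 26.9%, 29.8%, 23.1%, 32.4% and 24.2% in DSS filgotinib. The groups overlap, and the log2 change in DSS vehicle against water was -0.21, with a 95% interval from -0.46 to 0.04 (limma adjusted p = 0.219). Probe A_66_P116348 read 39.0%, 34.0%, 40.5%, 41.9% and 44.2% in water, but 12.3%, 15.5%, 13.6%, 21.8% and 16.4% in DSS vehicle. In DSS filgotinib it read 28.7%, 33.4%, 23.2%, 26.6% and 19.1%. By this probe Sh2d6 was lower in DSS vehicle than in water by -1.35 ± 0.16 on the log2 scale (adjusted p = 0.00019 over all probes) and higher in DSS filgotinib than in DSS vehicle by 0.72 ± 0.16 (adjusted p = 0.0143). It was lower in DSS filgotinib than in water by -0.63 ± 0.16 (adjusted p = 0.031). This probe lies nearer the 3′ end of the gene and was designed for another transcript than its partner. All 5 Sh2d6 readings of either probe were well above background in every group.

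That the 2 Sh2d6 probes changed unequally was tested on their ratio within each array, by an exact two-sided permutation test over mice. The log2 ratio of A_52_P523174 to A_66_P116348 was 1.14 higher in DSS vehicle than in water, with no overlap between mice (exact p = 0.00794, the smallest that 5 against 5 mice allow; adjusted p = 0.0333 over 21 such tests of probe pairs). It changed by -0.57 in DSS filgotinib against DSS vehicle (exact p = 0.0476, adjusted p = 0.111). The choice to test probe pairs was made after the disagreement was seen.

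Dclk1 encodes a microtubule-linked kinase that has long been used to stain tuft cells, and it is also a neuronal gene. Its probe nearest the 3′ end, A_51_P193036, read 17.3%, 15.6%, 18.9%, 19.6% and 23.4% in water. It read 6.79%, 5.47%, 5.29%, 9.05% and 6.58% in DSS vehicle, and 11.9%, 14.6%, 11.3%, 13% and 6.18% in DSS filgotinib. All filgotinib mice were below all water mice, and 4 of them were above all DSS vehicle mice, mouse 5 being the exception. The log2 change was -1.53 ± 0.21 (SE) in DSS vehicle against water (limma adjusted p = 0.000463), 0.75 ± 0.21 in DSS filgotinib against DSS vehicle (adjusted p = 0.0353) and -0.78 ± 0.21 in DSS filgotinib against water (adjusted p = 0.0355). The call of the middle comparison is near the threshold: it was lost in 9 of 16 other settings, and when any of 7 single mice were left out (DSS vehicle 1, 2, 3 or 5, or DSS filgotinib 1, 2 or 4), with adjusted p up to 0.0874.

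Another Dclk1 probe did not pass in any comparison, and the rest could not be read. Probe A_55_P2148748 read 5.53%, 6.60%, 3.59%, 6.13% and 6.65% in water, 4.38%, 3.99%, 6.84%, 4.20% and 9.96% in DSS vehicle, and 5.28%, 7.16%, 10.2%, 8.30% and 4.49% in DSS filgotinib. Its log2 change in DSS vehicle against water was -0.02, with a 95% interval from -0.62 to 0.58 (adjusted p = 0.969 over all probes). This probe was dim, and well above background on 4 of 5 arrays in each group. It thus had little room to show a fall, and ratios to it are not exact. The ratio of A_51_P193036 to this probe changed by -1.51 on the log2 scale in DSS vehicle against water and by -1.06 in DSS filgotinib against water (exact permutation p = 0.00794 and adjusted p = 0.0333 for each). Probe A_55_P2505946 was erratic within groups, from 3.03% to 26.3% in water and 2.27% to 28.9% in DSS vehicle, and its interval for the same change, -1.89 to 1.79, is too wide to read. The other two were well above background on 0 and 1 of 15 arrays. The DSS call of Dclk1 was therefore lost with the mean of its probes or its second brightest probe (-0.05, limma adjusted p = 0.976). Dclk1 has several promoters and transcript forms, and A_55_P2148748 lies upstream of the probe that fell. A change of transcript form was not tested.

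Avil encodes advillin, an actin-severing protein of the villin family found in tuft cell bundles and in sensory neurons. It read 61.1%, 53.2%, 73.7%, 60.7% and 65.7% in water, 87.3%, 80.5%, 59.2%, 53.6% and 61.6% in DSS vehicle, and 60.5%, 50.7%, 35.9%, 63.5% and 37.5% in DSS filgotinib. The groups overlap. The change in DSS vehicle against water was 0.11, with a 95% interval from -0.28 to 0.49 (limma adjusted p = 0.713), an interval that does not reach the -1.34 of Siglecf. In DSS filgotinib against DSS vehicle it was -0.48 ± 0.18 (adjusted p = 0.0958), and for the other probe -0.74 ± 0.27 (adjusted p = 0.0896 over all probes), neither of which passed.

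Of 7 tested enteric neuron markers, which bear on Dclk1 and Avil, 3 rose in DSS vehicle, led by the receptor Ret (2.31 ± 0.20) and the ubiquitin hydrolase Uchl1 (1.40 ± 0.17), and 0 fell. Only 2 water arrays had Ret well above background, so its size is not exact. In DSS filgotinib against DSS vehicle 3 of the 7 markers fell and 0 rose. The summed signal of the 7 was 4774% to 5542% in water, 4838% to 7492% in DSS vehicle and 4294% to 5573% in DSS filgotinib. Prph was well above background on 1 array and was not tested.

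Siglecf encodes a sialic acid-binding receptor that is best known from eosinophils and is also present on tuft cells. Its brighter probe read 19.6%, 22.4%, 22.6%, 26.8% and 36% in water, 7.27%, 8.99%, 10.7%, 11.1% and 11.7% in DSS vehicle, and 16.3%, 23.6%, 17.4%, 35.5% and 17.4% in DSS filgotinib. The DSS vehicle mice were below all others. The log2 change was -1.34 ± 0.22 (SE) in DSS vehicle against water (limma adjusted p = 0.00139) and 1.1 ± 0.22 in DSS filgotinib against DSS vehicle (adjusted p = 0.00744). DSS filgotinib and water differed by -0.24, with a 95% interval from -0.71 to 0.23 (adjusted p = 0.508). By its other probe, which no DSS vehicle mouse had well above background, Siglecf also fell with DSS (adjusted p = 0.00573 over all probes), but its change with filgotinib, 1.02 ± 0.38, did not pass (adjusted p = 0.0979). The ratio of this probe to the brighter one changed by -0.47 on the log2 scale in DSS vehicle against water, with no overlap (exact permutation p = 0.00794, adjusted p = 0.0333). Both probes thus fell. The ratio rests on background readings of the dimmer probe in DSS vehicle, so whether the 2 falls differed in size cannot be told.

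Siglecf could also come from eosinophils, whose list of 8 markers includes it. The granule protein genes Epx, Prg2 and Ear1 were not well above background on any of the 15 arrays. The others were seen on few arrays and not in 1 direction. The eotaxin receptor gene Ccr3 was well above background on 4 water arrays and on 0 of the 10 arrays of the DSS groups, the ribonuclease gene Ear2 on 1 water, 3 DSS vehicle and 0 DSS filgotinib arrays, and Il5ra, a subunit of the interleukin 5 receptor, on 2, 1 and 1. Alox15, a lipoxygenase of eosinophils and other cells, was the only other tested marker, and it was at least 2.19-fold lower in DSS vehicle than in water (limma adjusted p = 0.0016). It ran from 3.97% to 9.93% in water, 0.750% to 1.86% in DSS vehicle and 1.48% to 6.71% in DSS filgotinib. The part of eosinophils in the Siglecf result was not tested.

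Il25 encodes the cytokine by which tuft cells call on innate lymphoid cells, and it had a signal in 2 mice. The water mice read 34.5%, 1.65%, 0.736%, 1.17% and 0.697%, and the DSS filgotinib mice 1.02%, 1.12%, 18.8%, 1.34% and 1.42%. Water mouse 1 and filgotinib mouse 3 were well above background, and all other mice, with the 5 DSS vehicle mice at 0.721% to 1.32%, were not. Filgotinib mouse 3 is also the mouse with the high Pou2f3 reading, but its other Pou2f3 probe, at 2.63%, was not well above background. Among the 7 tested genes this mouse was the highest of its group in 0 and the lowest in 2. Its array was alone on its slide and on its scan day. Fitted without the filter on dim probes, Il25 differed by -1.14 ± 1.01 in DSS vehicle against water (limma adjusted p = 0.45), so no group difference was detectable.

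**Figure D2:**
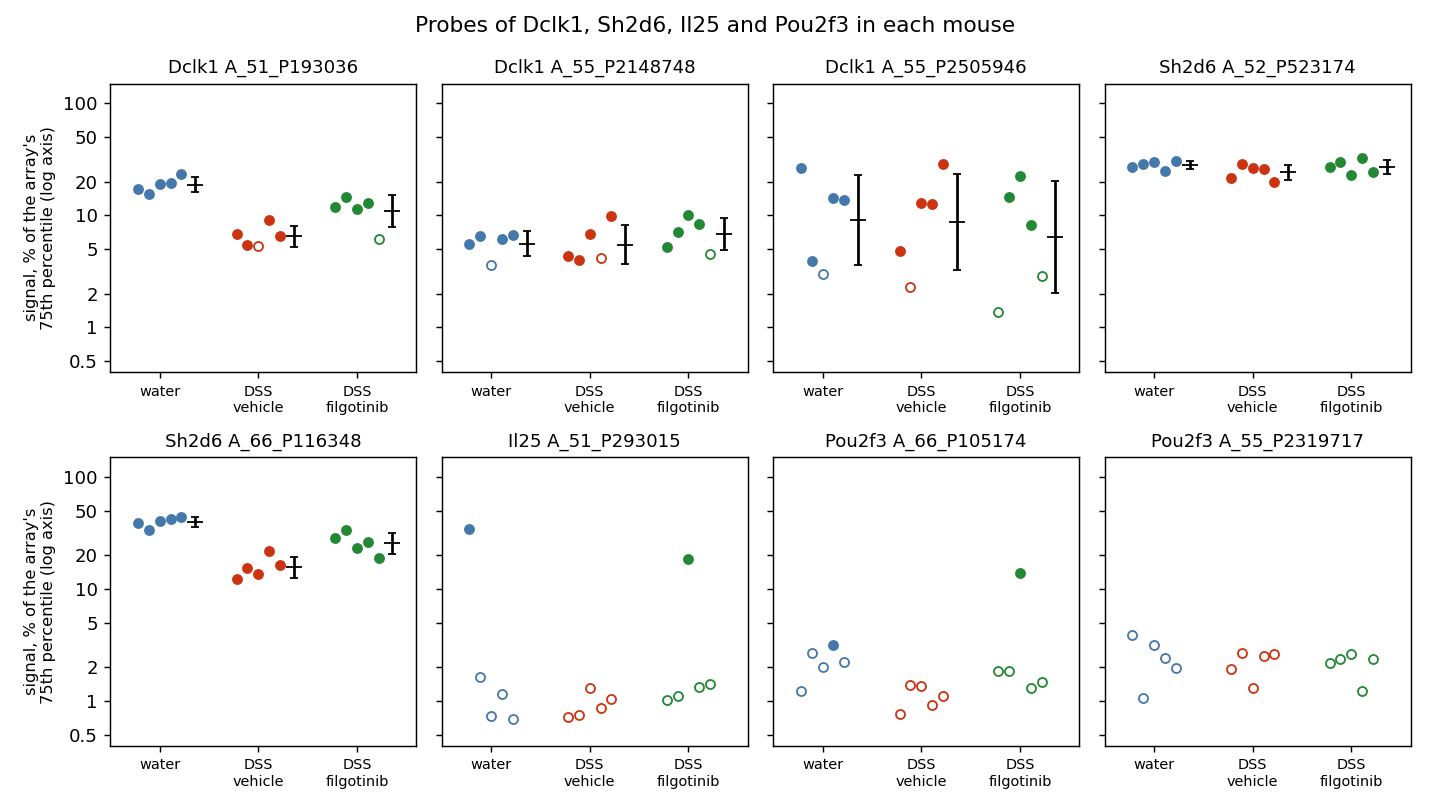
Signal in each mouse, as a percentage of the array's 75th percentile on a log axis, for 3 probes of Dclk1, 2 of Sh2d6, 1 of Il25 and 2 of Pou2f3. Filled points were well above background, open points were not, and bars are the mean ± SD of log2 values (n = 5), drawn for probes that passed the filter. For Dclk1 A_51_P193036 and Sh2d6 A_66_P116348 all DSS vehicle mice lie below all water mice, while for their partner probes the groups overlap. Il25 and Pou2f3 A_66_P105174 are well above background in 2 mice each.

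Slides that held both groups give a further view, from few mice. Slide 4 held 1 DSS vehicle mouse and 2 water mice, and there the log2 difference was -2.41 for Trpm5, -1.52 for Gfi1b, -1.94 for Dclk1, -3.83 for Rgs13 and -1.67 for Siglecf. That DSS vehicle mouse had Trpm5, Gfi1b and Rgs13 not well above background, so the sizes for these 3 are not exact. Slide 2 held 2 DSS filgotinib and 3 DSS vehicle mice, and there it was 1.92 for Trpm5, 1.85 for Gfi1b, 0.83 for Dclk1, 1.74 for Rgs13 and 1.00 for Siglecf. All 3 of these DSS vehicle mice had Trpm5 and Gfi1b not well above background, and mice 1 and 5 also Rgs13. The slide 2 sizes for these genes are not exact either. With the slide as a fixed block only these few arrays carry each contrast, and the lone DSS vehicle mouse of slide 4 is assumed to vary like the other mice. Trpm5 and Rgs13 then still passed in DSS against water (limma adjusted p = 0.0427 and 0.0161). Gfi1b (0.14), Dclk1 (0.0847) and Siglecf (0.178) did not. In filgotinib against DSS vehicle Trpm5, Gfi1b and Rgs13 passed (0.0233, 0.0271 and 0.0341), while Dclk1 (0.123) and Siglecf (0.126) did not.

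The size of the change in the dimmest genes depended on how background was handled. With normexp background correction, which adds an offset, and quantile normalization, the change in DSS vehicle against water was -0.67 for Trpm5, -0.38 for Gfi1b, -0.69 for Rgs13, -0.80 for Dclk1 and -0.83 for Siglecf, and all 5 passed (limma adjusted p from 0.000138 to 0.00439). In filgotinib against DSS vehicle it was 0.32, 0.49, 0.60, 0.35 and 0.65 in the same order, and Dclk1 did not pass (adjusted p = 0.0502).

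**Figure D3:**
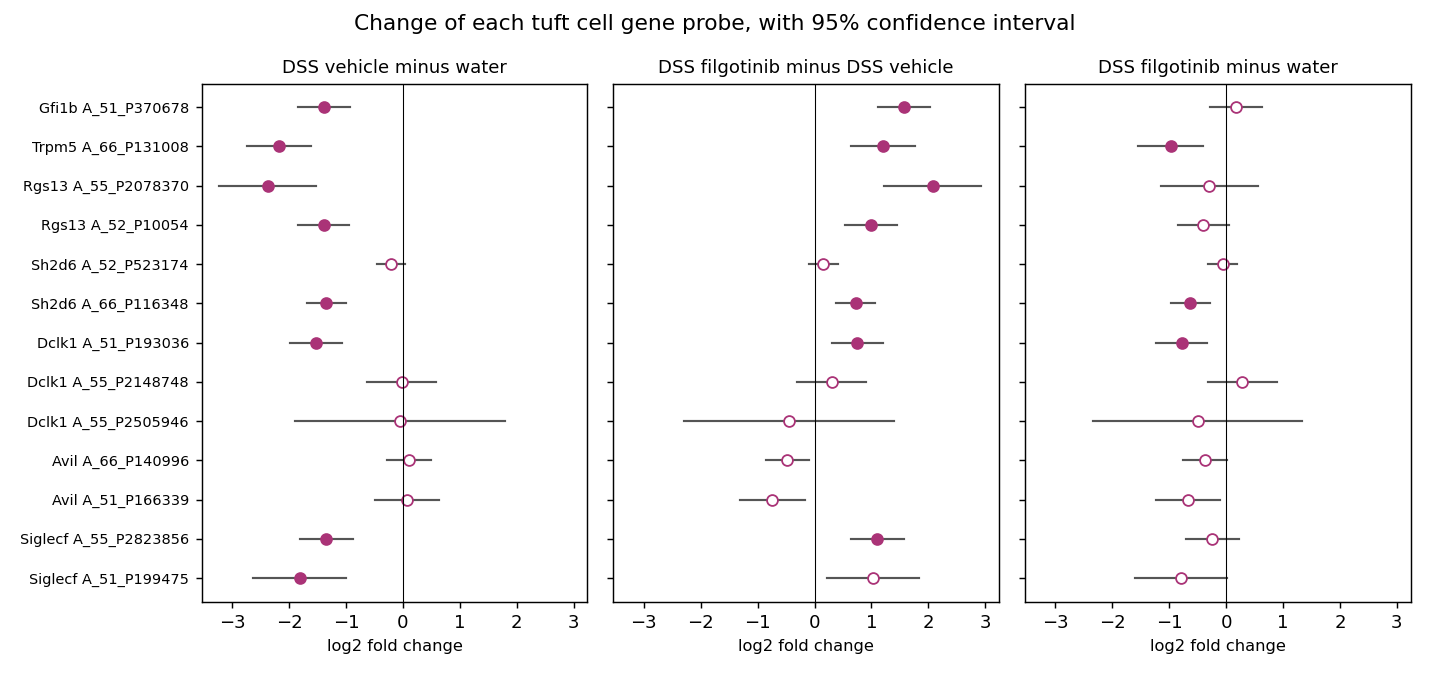
Fitted log2 change of each of the 13 tested probes in the 3 comparisons, with 95% confidence intervals; filled points passed an adjusted p under 0.05 over all probes. Gfi1b, Trpm5, Rgs13 and Sh2d6 A_66_P116348 lie left of 0 in DSS vehicle minus water and right of 0 in DSS filgotinib minus DSS vehicle, and Avil does not.

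The promoters of the members were read from RefSeq on build GRCm38.p6, whose table held 7 of the 9 genes, with 2 entries for Dclk1. They were searched on both strands for the octamer ATGCAAAT, which POU factors bind, and for AAATCA, the core bound by GFI family repressors; the motifs do not overlap in any of these windows. The octamer occurred in 1.74% of all 32851 promoters of 300 bases and in 0 of the 8 member promoters. The GFI core occurred in 14% of all promoters and in those of Gfi1b, Dclk1 (1 of 2) and Avil. The 250 bases before the start site are shown for Gfi1b and Trpm5, the tested members that no DSS vehicle array had well above background, with the GFI core in capitals.
Gfi1b (chr2:28621983-28622232, minus strand): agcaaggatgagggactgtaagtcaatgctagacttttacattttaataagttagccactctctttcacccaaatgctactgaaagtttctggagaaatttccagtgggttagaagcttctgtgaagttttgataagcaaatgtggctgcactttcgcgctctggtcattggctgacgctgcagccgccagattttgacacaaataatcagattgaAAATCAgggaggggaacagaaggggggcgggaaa
Trpm5 (chr7:143094643-143094892, minus strand): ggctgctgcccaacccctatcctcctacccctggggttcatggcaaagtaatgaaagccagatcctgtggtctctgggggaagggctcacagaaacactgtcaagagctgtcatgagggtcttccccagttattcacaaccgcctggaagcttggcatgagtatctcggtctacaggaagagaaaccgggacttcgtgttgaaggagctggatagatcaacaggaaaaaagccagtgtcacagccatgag
The core in the Gfi1b promoter begins 34 bases before the start site. Gfi1b, Dclk1 and Avil, which carry the core, include genes that fell with DSS and one that did not.

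Other genes known from tuft cells moved only in part, and how much of their signal came from tuft cells was not measured. Among 11 tested genes of tuft signalling and taste transduction, Gng13 fell and Atp2a3 rose in DSS vehicle against water, with a list median of 0.12. Gng13, the gamma subunit of the taste G protein, read 6.82%, 16.7%, 5.40%, 7.43% and 10.04% in water and 3.90%, 2.12%, 1.45%, 6.45% and 3.62% in DSS vehicle, a log2 change of -1.47 ± 0.42 (limma adjusted p = 0.0248), with overlap. Only 2 DSS vehicle arrays had Gng13 well above background, so this size is not exact. Plcb2, the phospholipase that acts ahead of Trpm5, changed by 0.12 ± 0.09 and Itpr3, the calcium release channel between them, by 0.13 ± 0.07, neither past the threshold. The G protein alpha subunit Gnat3 and the succinate receptor Sucnr1 were well above background on 2 and 0 arrays and were not tested. With filgotinib 0 of the 11 passed against DSS vehicle (limma).

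Tuft cells make leukotrienes and prostaglandin D2, and 2 of 7 tested effector enzyme genes fell in DSS vehicle while 0 rose. Alox5, the 5-lipoxygenase that starts leukotriene synthesis, read 19.1%, 11.7%, 14.8%, 14% and 18.9% in water, 5.26%, 3.52%, 5.34%, 7.76% and 7.82% in DSS vehicle, and 12.3%, 15.2%, 13.3%, 9.68% and 8.31% in DSS filgotinib. The DSS vehicle mice were below all others. Its log2 change was -1.44 ± 0.23 with DSS (limma adjusted p = 0.00118) and 1.01 ± 0.23 with filgotinib (adjusted p = 0.0132). Only 3 DSS vehicle arrays had Alox5 well above background, so these sizes are not exact. Hpgds, the prostaglandin D synthase of haematopoietic type, fell by 0.94 with DSS (adjusted p = 0.0125) and differed by 0.08 ± 0.23 between the DSS groups (adjusted p = 0.854), so it was still lower in DSS filgotinib than in water (-0.86 ± 0.23, adjusted p = 0.0342). Ptgs1, Ltc4s, Alox5ap, Chat and Pla2g4a did not pass in any comparison.

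Among 24 other genes known from tuft cells, 5 fell and 4 rose with DSS, with a median of 0.02. Hmx3, a homeobox factor gene, was at least 2.72-fold lower in DSS vehicle than in water (limma adjusted p = 0.000526) and differed by 1.35 ± 0.32 on the log2 scale between DSS filgotinib and DSS vehicle (adjusted p = 0.0167), a size that rests on background readings in both groups. It ran from 7.23% to 11.3% in water, from 1.12% to 2.83% in DSS vehicle, and from 2.21% to 8.74% in DSS filgotinib, where 1 of 5 mice had it well above background. Il17rb, part of the interleukin 25 receptor, fell by 0.87 with DSS (adjusted p = 0.0289), and its rise of 0.81 ± 0.25 with filgotinib did not pass (adjusted p = 0.0525). Cd24a and Vav1, which many other cells also express, fell by 0.66 and 0.64 with DSS. Gprc5c, an orphan receptor, rose by 0.93 ± 0.27. With filgotinib 5 of the 24 rose against DSS vehicle (Hmx3, Ly6g6d, Cd24a, Vav1 and Matk) and 2 fell (Gprc5c and Espn).

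Around interleukin 25, the type 2 circuit was measured through receptors and targets rather than through its cytokines. No array had Il4, Il5, Il9 or Tslp well above background, and 2 arrays had Il13. Of 13 tested genes 6 rose and 2 fell with DSS. Il33, an epithelial and stromal alarmin, fell by 3.64 on the log2 scale (limma adjusted p = 0.000194), while its receptor gene Il1rl1 was at least 30.3-fold higher (adjusted p = 0.000341). Retnlb, a goblet cell product that interleukin 13 induces, rose by 1.94 ± 0.40 and Gata3, the factor of type 2 lymphocytes, by 1.90 ± 0.47. With filgotinib Il33 rose by 1.55 ± 0.44 (adjusted p = 0.0365), and Il1rl1 and Retnlb fell, by 3.62 and 2.10. Il33 was well above background on 3 DSS vehicle and 4 DSS filgotinib arrays, Il1rl1 on 2 DSS filgotinib arrays, and Gata3 on 3 water arrays. The sizes given for Il33, for Gata3 and for the fall of Il1rl1 are thus not exact.

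Lists of other differentiated epithelial cells held no gene that fell with DSS; the difference between lists was not tested. All 10 enteroendocrine markers rose with DSS (9 with normexp), with a median log2 change of 1.37 against a median of 0.05 over all genes, and 9 of 10 fell with filgotinib against DSS vehicle. Enteroendocrine cells are the other chemosensory and secretory type of this epithelium. Of 10 general epithelial markers 5 rose and 0 fell, and of 7 goblet cell markers 5 rose and 0 fell, with medians of 0.22 and 0.29. These small rises depended on the scaling: under median scaling, quantile normalization or the deposited values, 0 or 1 epithelial and 1 goblet cell marker passed, whereas Gfi1b, Trpm5, Rgs13, Dclk1 and Siglecf passed under each. The summed signal of the general epithelial markers was 149602% to 169479% in water, 186322% to 199392% in DSS vehicle and 165433% to 193641% in DSS filgotinib. Among 6 tested leukocyte markers S100a9 and Ly6g rose and 0 fell.

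Of 12 tested genes of stem cells and secretory fate, 6 fell with DSS, 0 rose and the other 6 did not pass. The stem cell gene Lgr5 was at least 15.1-fold lower (limma adjusted p = 5.83e-10) and Ascl2 and Smoc2 fell by 5.55 and 3.83, and none of these 3 passed with filgotinib against DSS vehicle. Neurog3, a factor of endocrine progenitors, and Dll1, a Notch ligand of secretory progenitors, fell by 0.95 and 0.48 with DSS and rose by 0.81 ± 0.15 and 0.41 ± 0.11 with filgotinib (adjusted p = 0.00543 and 0.0317). Neurog3 was well above background on only 1 DSS vehicle array, so its sizes are not exact. Atoh1, the master factor of goblet and endocrine fate, changed by -0.06 ± 0.15 and 0.11 ± 0.15, neither past the threshold.

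**Figure D4:**
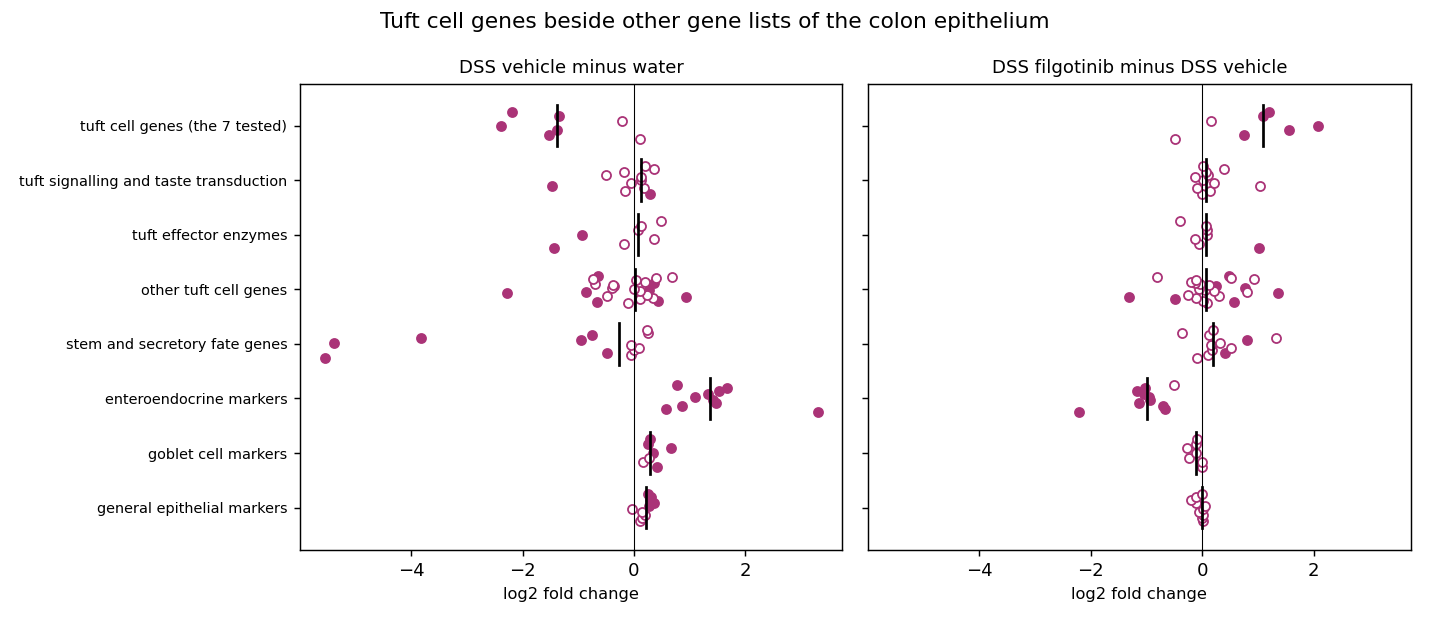
Fitted log2 change of each tested gene in the tuft cell genes and in 7 other lists, for DSS vehicle minus water and DSS filgotinib minus DSS vehicle. Filled points passed an adjusted p under 0.05, open points did not, and the black line is the list's median. Enteroendocrine markers lie to the right with DSS and to the left with filgotinib, opposite to most of the tuft cell genes.

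Mice of a group varied together in several of the 7 tested genes. Water mouse 5 was the highest of its group in 5 of 7 genes and water mouse 2 the lowest in 5. Filgotinib mouse 4 was highest in 4 and filgotinib mouse 5 lowest in 4. In no DSS vehicle mouse were more than 2 of the 7 genes the highest or the lowest. The correlation of within-group deviations between pairs of members, over 15 arrays that share each array's scaling, ran from -0.24 (Sh2d6 and Rgs13) to 0.82 (Gfi1b and Siglecf).

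The genes whose within-group deviations were most like the mean of the members were sought among 15229 named genes. They were Ly6e (Pearson r = 0.90 over 15 arrays), Ifitm6 (0.89), C2 (0.85), Cxcl16 (0.85), Sema4d (0.83), Capn3 (0.83), N4bp3 (0.82) and Tmem229b (0.82), where 5% of genes lay above 0.48. Ly6e and Ifitm6 are interferon-inducible membrane protein genes, C2 is a complement component and Cxcl16 a chemokine. They did not follow the members between groups: of these, C2 and Capn3 rose with DSS, by 1.22 and 0.70 (limma adjusted p = 0.00675 and 0.0251), while Ly6e (0.44, adjusted p = 0.315), Ifitm6 (0.81, adjusted p = 0.113) and Cxcl16 (0.44, adjusted p = 0.0966) did not pass. The members' own correlations with the mean of the others were 0.78 for Dclk1, 0.52 for Siglecf, 0.49 for Gfi1b, 0.40 for Sh2d6, 0.36 for Trpm5, 0.20 for Avil and 0.19 for Rgs13.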

How the data were processed

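The processed intensity of each spot, as deposited in the scanner files, came from Agilent Feature Extraction 11.5.1.1, which per the file headers had subtracted background and removed spatial trends. The deposited table of the series holds log2 values of 32349 probes that correlated with log2 of their own arrays at r from 0.9988 to 0.9997; its normalization is not given in the sources used here, and its column medians lay between 8.841 and 8.859. It served as an alternative. The submitters' processing notes also name limma.

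Control spots and 124 probes with a non-uniformity mark were left out, and 0 spots were saturated. Each value is the log2 ratio of a processed signal to its array's 75th percentile. Probes were named through RefSeq accessions of GRCm38.p6 (32932), by symbol (10207), through a matched probe with the same file name (347), or by the array file alone (12995), whose names may be outdated. Groups were compared in 1 limma 3.58.1 fit (R 4.3.3) over all 15 arrays, two-sided, with probes well above background on at least 5 arrays. Code was tested on simulated data. Figures used matplotlib 3.10.9, and the exact permutation tests scipy 1.17.1.

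The members and the gene lists were chosen with earlier results of these data known. All 9 members are named, with up to 4 genes per list by size of change among those that passed in DSS against water and defining genes that did not. Genes outside that rule were named after their values were seen: Plcb2, Itpr3, Atoh1, Cma1, Vav1, Dll1 and those listed for filgotinib. Each array is 1 mouse, and p-values measure the spread between these mice. Some marker genes are not reported here.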

Additional observations from a re-analysis of the deposited data

Results flagged for a closer look

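Within each group of 5 mice, the gap between the highest or lowest value of each probe and its neighbour was set against the whole range of log2 values. Of 57 groups 6 exceeded Dixon's limit of 0.71 for 5 samples, where chance would give about 1 in 20. Gfi1b in water mouse 5 stood apart at 11.8%, well above background and higher than the other water mice. Il25 stood apart in water mouse 1 at 34.5% and in DSS filgotinib mouse 3 at 18.8%, the 2 readings of that gene well above background. Pou2f3 probe A_66_P105174 stood apart in DSS filgotinib mouse 3 at 13.8%. The other Pou2f3 probe was low in DSS filgotinib mouse 4 at 1.24%, a background reading. Dclk1 probe A_55_P1970244 stood apart in DSS vehicle mouse 4 at 11.1%, its only reading well above background.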

How the results depend on the processing

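In DSS against water 5 members were lower in every setting tried except with the slide as a fixed block (2), and 0 were higher in any. The 5 were the same genes in the 15 fits that left out 1 mouse, but with the mean of a gene's probes and with the second brightest probe Dclk1 was lost and Sh2d6 was called. In filgotinib against DSS vehicle 4 or 5 members were higher in the other settings and without 1 mouse, 3 with the slide as a fixed block, and 0 were lower in any. Dclk1 was lost in 9 of 16 settings, and Sh2d6 was called with the mean of a gene's probes and the second brightest probe. In filgotinib with DSS against water the 2 lower members became 0 with median scaling, scan day as a fixed block, the slide as a fixed block and the replicate block, and 1 with quantile normalization, the mean of a gene's probes, the slide as a random block and only the groups compared. Leaving out 1 mouse gave 0 to 2. The change of Dclk1 between the DSS groups reversed to -0.45 (limma adjusted p = 0.784) on its second brightest probe, a setting added after the data were seen. On the second brightest probe the call of Siglecf with filgotinib was lost and Sh2d6 was called in all 3 comparisons.

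Replicate numbers do not pair mice: deviations of same-numbered mice correlated at -0.52 to 0.53 (median -0.07), over 0.1 in 5 of 15 pairs. With the replicate block, all genes lower and higher were 1576 and 1814 with DSS (1855 and 2327 without), 679 and 925 with filgotinib (996 and 1482 without), and 325 and 452 for filgotinib with DSS against water (740 and 1335 without).

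Of all calls, higher ones made up 55.6% with DSS, 59.8% with filgotinib and 64.3% for both against water. These shares were 38%, 73.6% and 48.9% with median scaling, 48%, 56.2% and 48.9% with quantile normalization, and 49%, 54.9% and 48.1% with the deposited values. With the slide as a fixed block 51 genes were lower and 34 higher with DSS, 205 and 235 with filgotinib, and 2 and 0 for both against water. Signal near background limits Pou2f3, Il25 and, in DSS vehicle mice, Gfi1b, Trpm5 and Rgs13. The same holds in DSS vehicle mice for list genes such as Neurog3, Gng13, Alox5 and Il33, and in water mice for Ret and Gata3.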
